A study of Danio rerio with 5 samples.

Results

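This section describes 1 pool of zebrafish larvae irradiated with 12 Gy of protons against 1 pool of unirradiated control larvae, chosen by the dose in the sample labels. These are 2 of the 5 arrays of the series, and the other 3 hold pools given 15 Gy. All animals were wild-type AB embryos drawn from several clutches. The 12 Gy group received its dose at 24 h after fertilization from an 8 MeV/u proton beam at 7.5 Gy/min, and the control group received none. Both grew on at 28.5 °C and were collected as larvae at 7 days after fertilization, with 20 animals pooled for each RNA sample. Whole-larva RNA was hybridised to Affymetrix zebrafish arrays, on which each probe set measures a transcript as an intensity. Levels below are log2 intensities, and a difference is the log2 value at 12 Gy minus the log2 value in the control, so that 1 stands for a 2-fold difference. With 1 array a side there is no replicate check, and the 3 arrays at 15 Gy supply the only spread between pools.

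Protons break DNA, and damaged cells stabilise the transcription factor p53, which turns on genes of cell cycle arrest, repair and death. Damaged tissue also releases cytokines and danger signals, which act through receptors, NF-κB and STAT3 on inflammatory genes and through kinase cascades on immediate early genes such as fos and jun. At 7 days a zebrafish larva swims and sees, mainly with cone photoreceptors, which detect light through opsins and the G protein transducin.

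Of 15502 probe sets, 841 (5.43%) lay 2-fold or more above the control at 12 Gy, and 736 (4.75%) lay 2-fold or more below it. The difference was at least 8-fold for 40 probe sets above the control and 13 below it. The median difference was -0.009, and 11919 probe sets (76.9%) lay within 1.5-fold. Of the 841 higher probe sets, 815 (5.26% of all) differed by more than the range among the 15 Gy arrays, as did 477 (3.08%) of the 736 lower ones. Probe sets past 2-fold were more frequent at higher levels, with 438 higher and 271 lower among the 3876 brightest by mean level, against 29 higher and 51 lower among the 3876 dimmest. A limma fit of all 5 arrays, which assumes that the lone 12 Gy and control arrays vary as the 15 Gy arrays do, passed 0 probe sets (0%) at a Benjamini-Hochberg adjusted p under 0.05. The smallest adjusted p was 0.0562, and 2644 probe sets had an unadjusted p under 0.05, of which 1467 were higher at 12 Gy and 1177 lower. That unadjusted count depends on the spread at 15 Gy, with 3669 without 15 Gy replicate 1, 2577 without replicate 2 and 1180 without replicate 3. The values below are therefore descriptions of these pools. After collapsing probe sets to 8793 named genes, 564 genes (6.41%) lay at least 2-fold above the control and 398 (4.53%) at least 2-fold below it. These shares are the background for the counts of gene groups below. The groups were chosen with earlier results of these data known, so a rank among them is a description only.

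The 5 arrays had median levels of 5.95 to 6.03. Of 6 markers planned for each tissue, 5 of retina, 6 of neurons, 5 of fast muscle, 3 of liver and 5 of epidermis were measured. All of these were above the array median at 12 Gy and in the control. Of 6 exocrine pancreas markers, 4 were above it at 12 Gy and 5 in the control. For lens 2 of 3 measured markers and for red blood cells 1 of 3 were above it in each of these arrays. Among 6 leukocyte markers, 4 exceeded the array median at 12 Gy and 2 in the control. The marker csf1ra, the receptor that marks macrophages and some pigment cells, stood at 4.55 in both arrays. Its mean over the 5 arrays was also 4.55, among the 3876 dimmest probe sets. An equal value at that level may reflect a probe set that does not measure the transcript. The ratio of 5′ to 3′ probe sets for actin, a measure of RNA integrity and labelling, was 0.0354 at 12 Gy and 0.0171 in the control, with 0.035 to 0.129 at 15 Gy. For GAPDH it was 0.177 at 12 Gy and 0.174 in the control. The part of this ratio in the results was not tested. In pools of whole larvae, fewer cells of a type and less RNA per cell cannot be told apart.

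**Figure D1:**
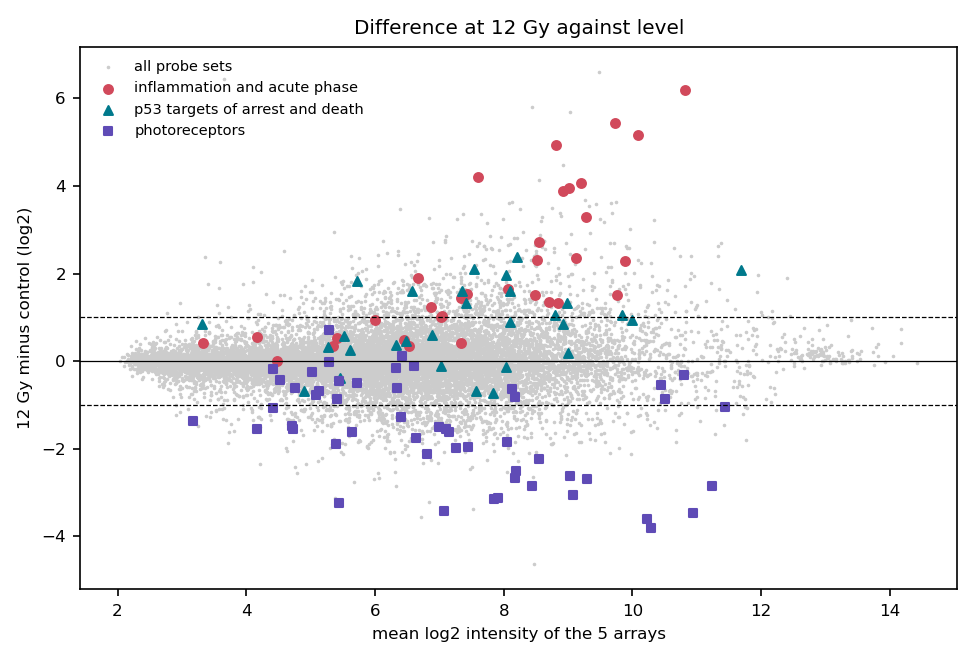
Difference between the 12 Gy array and the control array (log2, vertical axis) against the mean log2 intensity of the 5 arrays (horizontal axis), with 1 point for each of 15502 probe sets. Dashed lines mark 2-fold, and coloured points are the genes of 3 lists; the inflammation genes reach 6.20 and the photoreceptor genes reach -3.81.

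The gene furthest above the control was mmp9, a secreted protease that cleaves basement membrane and that leukocytes and wounded epidermis make. Its level was 12.08 at 12 Gy and 5.88 in the control, a 73.8-fold difference, and the 15 Gy arrays gave 12.47, 11.70 and 11.96. Among genes of matrix turnover, the collagenase gene mmp13a had 10.58 at 12 Gy and 5.15 in the control (43.0-fold), and the protease inhibitor timp2b had 9.92 at 12 Gy and 4.98 in the control (30.7-fold). For all 3 genes the 12 Gy value lay within the range of the 15 Gy arrays, far above the control. The difference next to that of mmp9 in size was that of hsp70.3, an inducible chaperone gene, with 10.42 at 12 Gy and 4.72 in the control (51.8-fold). That value is uncertain as to the gene, since zebrafish hsp70 genes are near-identical copies whose transcripts one probe set may bind together.

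socs3a, the feedback inhibitor of cytokine receptors that signal through STAT3, had 11.44 at 12 Gy and 6.28 in the control, and its duplicate socs3b had 10.20 at 12 Gy and 6.13 in the control. Both exceeded all 15 Gy arrays, which gave 10.52 to 11.23 for socs3a and 9.53 to 10.13 for socs3b. ptgs2a, which makes prostaglandins, stood at 8.39 at 12 Gy against 4.19 in the control. irg1l, related to an itaconate-producing enzyme of activated macrophages and expressed in inflamed zebrafish epidermis, stood at 9.04 at 12 Gy against 5.07 in the control. The irg1l value was below all 3 arrays at 15 Gy (9.76 to 10.63). The other genes among the 15 furthest above the control were slc16a9a, cebpb, anxa2a, clu, junba, pfkfb3 and egln3, with folds of 17.6 to 11.2. Of these, slc16a9a, a monocarboxylate transporter gene (9.95 at 12 Gy, 5.81 in the control), pfkfb3, a glycolysis regulator (9.82 at 12 Gy, 6.32 in the control), and egln3, an oxygen sensor (7.98 at 12 Gy, 4.50 in the control), exceeded every 15 Gy array.

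The 3 genes furthest below the control were cone opsin genes. The blue cone opsin gene opn1sw2 had 9.28 at 12 Gy and 13.09 in the control, a level 14.0-fold higher in the control. The green cone opsin gene opn1mw1 had 9.23 at 12 Gy and 12.83 in the control, and the ultraviolet cone opsin gene opn1sw1 had 10.01 at 12 Gy and 13.47 in the control. The 15 Gy arrays differed widely for these opsins: opn1sw2 gave 7.13, 11.36 and 10.55, so the 12 Gy value lay inside a range of several units that ended below the control. nme2a, a nucleoside diphosphate kinase gene, had 6.24 at 12 Gy and 9.65 in the control. Of the 15 genes furthest below, 3 were not in the photoreceptor list. These were gnb5b, a G protein β subunit gene (5.03 at 12 Gy, 7.80 in the control), aqp9b, a water and glycerol channel gene (5.37 at 12 Gy, 8.05 in the control), and neurod6a, a transcription factor gene of neurons (5.33 at 12 Gy, 8.00 in the control).

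**Figure D2:**
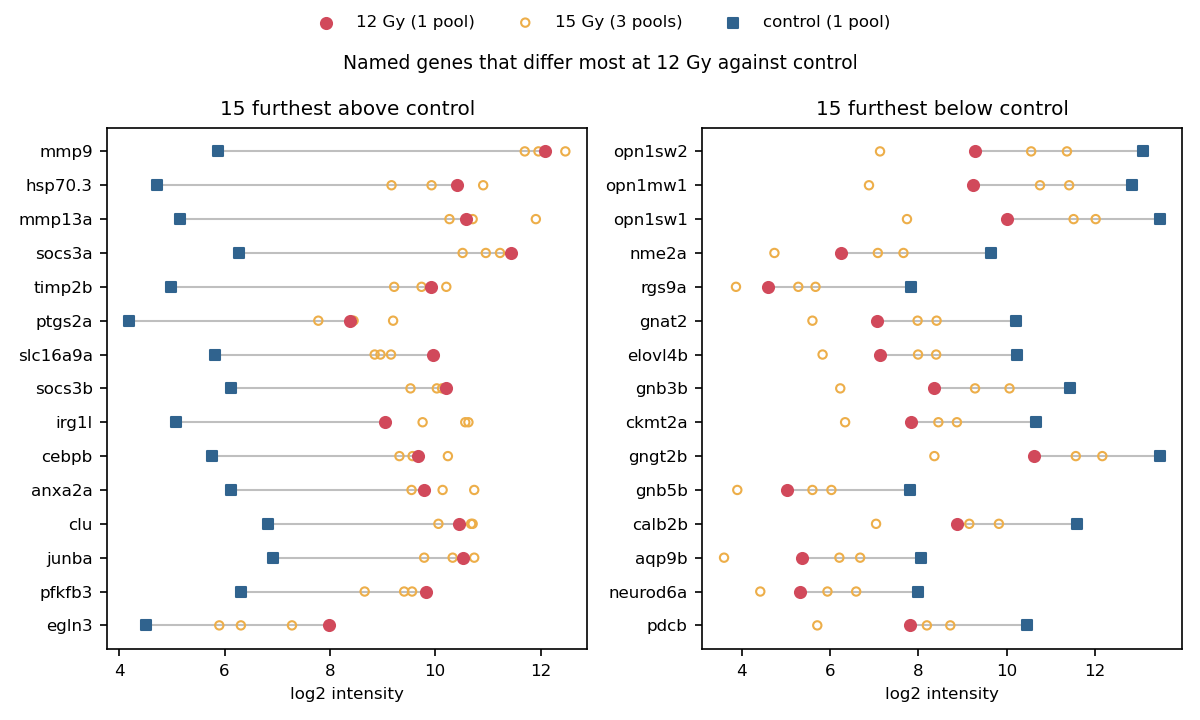
Log2 intensity (horizontal axis) of the 15 named genes furthest above and the 15 furthest below the control, as the 12 Gy pool (red circle), the 3 pools at 15 Gy (open circles) and the control pool (blue square). No 15 Gy pool reaches the control value in these 30 rows; mmp9 is at 12.08 at 12 Gy and 5.88 in the control, and opn1sw2 at 9.28 at 12 Gy and 13.09 in the control.

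Different probe sets of a gene give a check of the measurement alone. They read the same 2 RNA pools, so their agreement does not stand in for a replicate. Of the named genes, 1539 had 2 or more probe sets, 3541 in all, and 958 of these genes (62.2%) had every probe set on the same side of the control. Small differences enter that share, since the median gap between a gene's highest and lowest difference was 0.28 and only 109 genes had a gap over 1. Among the 211 genes with at least 1 probe set past 2-fold, 173 (82.0%) had all probe sets on the same side. All probe sets were past 2-fold in 30 genes above the control and 21 below it. No gene had probe sets past 2-fold in opposite directions. Without the dimmest 30% of probe sets the share with the same sign was 69.1% over all such genes and 86.5% over those with a 2-fold probe set.

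fosab, a fos gene of the AP-1 transcription factor, had 4 probe sets with differences of 3.26, 3.25, 1.67 and 1.34. Its brightest gave 10.62 at 12 Gy and 7.36 in the control. mknk2b, a kinase gene of translation control, had 3 probe sets at 3.37, 3.61 and 2.2. Further genes with every probe set past 2-fold, taken by their number of probe sets, included ppp1r15a, which restarts translation after stress (4 probe sets, 1.13 to 1.73). Also among them were fosl2 (3 probe sets, 1.82 to 2.57) and sypb, a synaptic vesicle protein gene (3 probe sets, -1.79 to -1.08). gnat2, the cone transducin gene, had differences of -3.14 and -3.55.

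Some genes gave different answers by probe set. fn1a, which encodes the matrix protein fibronectin, had 2.35 on its brightest probe set (8.50 at 12 Gy, 6.15 in the control) and -0.34 and 0.44 on the others, which lay at 3.07 to 5.48 in these arrays. aspn, a small matrix proteoglycan gene, had 2.01 and -0.02, the latter on a probe set at 4.06 at 12 Gy and 4.08 in the control. hnrnpa0b, an RNA-binding protein gene, had -0.95, -0.83 and -1.23 on 3 probe sets and 0.81 on the other. khdrbs1a, also an RNA-binding protein gene, had 5 probe sets from -1.49 to -0.28 and 1 at 0.29. For pfkfb3 the brightest probe set differed by 3.50 and the dimmer by 0.63, so the size of a difference can rest on the probe set chosen. For cebpd the differences were 2.35 and 0.19, but the dimmer probe set read only 2.80 at 12 Gy and 2.61 in the control. At such levels near background a small difference may reflect a probe set that does not measure the transcript.

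**Figure D3:**
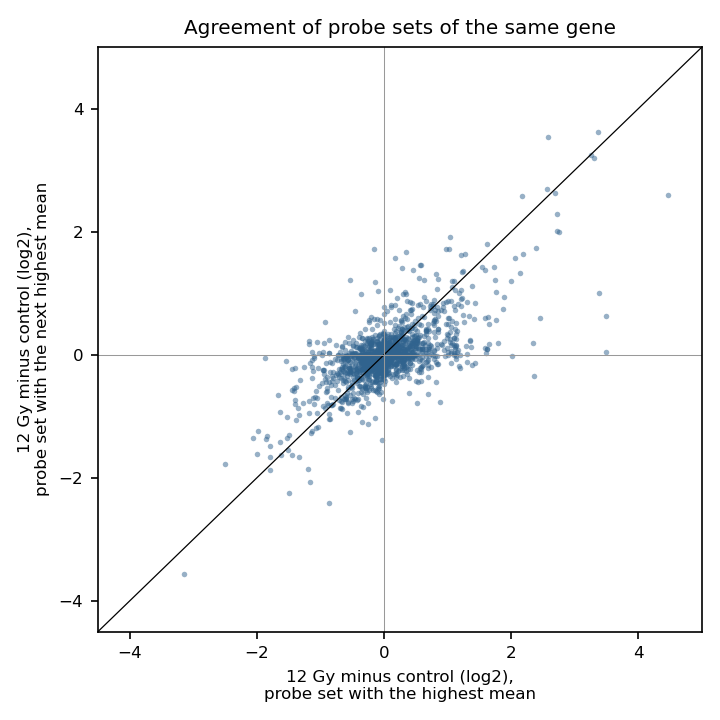
Difference between the 12 Gy and control arrays (log2) for 1539 genes with 2 or more probe sets, on the brightest probe set by its mean level (horizontal axis) and on that with the next highest (vertical axis). The line marks equal differences; points with large differences lie mostly at the lower left and upper right, and gnat2 is at -3.14 and -3.55.

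In the list of p53 targets, 12 of the 29 measured genes were at least 2-fold higher and 0 lower by that much. The median difference of the 29 was 0.85, against a median of 0 over all named genes. ccng1, cyclin G1, had 12.04 at 12 Gy and 9.96 in the control, and mdm2, the ubiquitin ligase that degrades p53, had 8.22 at 12 Gy and 6.26 in the control. phlda3, an inhibitor of Akt signalling, had 7.66 at 12 Gy and 5.56 in the control. The growth arrest genes gadd45ba (2.38 and 1.73 on its 2 probe sets) and gadd45aa (1.84) and the cell adhesion gene perp (1.06, and 0.19 on its dimmer probe set) were also in the 12. The remaining 6, named here after their values were seen, were gadd45bb and btg2 (1.61 each), gadd45ab (1.6), gadd45ga (1.33), plk3 (1.33) and sesn3 (1.06). The other probe set of btg2 differed by 0.02, at the low levels of 3.55 at 12 Gy and 3.52 in the control. All 12 differed by more than the range among the 15 Gy arrays. That held for 815 of all 841 probe sets that were at least 2-fold higher. The part of p53 itself in these values, those of the gadd45 genes included, was not tested. baxa, which permeabilises mitochondria, was below the threshold at 0.89 (8.19 at 12 Gy, 7.30 in the control). Other death effectors chosen after their values were seen were smaller, with 0.60 for bbc3 and 0.57 for pmaip1. Of the inhibitors of p53 other than mdm2, also chosen after their values were seen, mdm4 had a difference of -0.73 and the phosphatase gene ppm1da -0.67 on its brightest probe set.

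In the list of DNA repair and checkpoint genes, 0 of the 44 measured passed 2-fold in either direction (median -0.01, from -0.60 to 0.23). apex1, the endonuclease of base excision repair, was lowest with 8.46 at 12 Gy and 9.06 in the control. Of 62 genes of the cell cycle and replication, 0 passed either way (median -0.05), and the extremes were rrm1, a ribonucleotide reductase subunit (-0.51), and ccnd1, cyclin D1 (0.71). Among 27 caspases, bcl2 family members and death receptors, 3 (11.1%, against 6.41% of all named genes) were at least 2-fold higher. They were mcl1b (1.79) and mcl1a (1.61), which protect cells from death, and caspa (1.13), an inflammatory caspase. The median of the 27 was 0.14, and 0.215 without the dimmest 30% of probe sets.

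Among the 34 lists, which were chosen with earlier results of these data known, inflammation and acute phase genes stood highest as a group. Of 33 genes, 23 were at least 2-fold higher and 0 lower, with a median of 1.5. All 23 differed from the control by more than the range among the 15 Gy arrays. So did 815 of all 841 probe sets that were at least 2-fold higher. Of the 33 genes at 12 Gy, 8 were above all 15 Gy arrays, 19 within their range and 6 below all of them. The share above was close to the 21.1% of all named genes, and the share below was smaller than their 31.3%. Beside the proteases, inhibitors and socs genes above, the list held transcription factors and NF-κB feedback. cebpb, a transcription factor gene of the acute phase, had 9.67 at 12 Gy and 5.77 in the control. nfkbiaa, the inhibitor that NF-κB itself induces, had 10.39 at 12 Gy and 7.11 in the control, above all 15 Gy arrays (9.52 to 9.84). s100a10b, an annexin partner, had 9.59 at 12 Gy and 7.31 in the control, below all 15 Gy arrays (10.25 to 11.41). The cytokine receptor kinase gene jak1 had 9.97 at 12 Gy and 8.46 in the control. socs1a, which restrains interferon receptors, was at 0.49.

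Of 44 AP-1 and immediate early genes, 22 were at least 2-fold higher and 2 lower (median 0.93). junba, a jun gene, had 10.53 at 12 Gy and 6.92 in the control. The stress transcription factor gene atf3 had 8.61 at 12 Gy and 5.46 in the control, and ier2a had 9.42 at 12 Gy and 6.55 in the control. ccn1, a matrix signalling gene, had differences of 3.38, 1.0 and 0.05 on 3 probe sets, of which the brightest read 9.82 at 12 Gy and 6.43 in the control. The 2 lower genes (4.55%, against 4.53% of all named genes) were the zinc finger genes egr2b (-1.2) and klf11a (-1.08). Of the 44, 18 (40.9%) were above all 3 arrays at 15 Gy, against 21.1% of all named genes, and fosab (9.72 to 9.89 at 15 Gy) and atf3 (8.08 to 8.44 at 15 Gy) were among them.

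Among 18 interferon and innate sensing genes, 3 (16.7%, against 6.41% of all named genes) were at least 2-fold higher and 0 lower. The 3 higher genes of this short list were irf1b (2.86), isg15 (2.41) and b2m (1.52). The median of the 18 was 0.36, and 0.833 without the dimmest 30%. irf1b, an interferon regulatory factor gene, read 8.16 at 12 Gy and 5.30 in the control. Of 30 leukocyte markers, 7 (23.3%, against 6.41% of all named genes) were at least 2-fold higher and 1 lower. The median of the 30 was 0.41, or 0.661 without the dimmest 30%. The lower gene (3.33%, against 4.53% of all named genes) was the carboxypeptidase gene cpa5 (-1.14). That gene is also in the list of exocrine pancreas and gut. srgn, the proteoglycan of leukocyte granules, had 8.58 at 12 Gy and 5.75 in the control, and ncf1, a subunit of the phagocyte oxidase, had 5.54 at 12 Gy and 4.08 in the control. The pan-leukocyte genes lcp1 (1.15), ptprc (0.86) and coro1a (0.77) and the neutrophil gene mpx (0.46, with 0.03 to 1.19 over 4 probe sets), chosen after their values were seen, were higher by less than srgn. The mpx probe set at 0.03 read only 2.81 at 12 Gy and 2.78 in the control. lyz, lysozyme, differed by 0.15, with 6.70 at 12 Gy and 6.55 in the control. The part of leukocyte number in the values of the inflammation genes was not tested.

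Of 47 heat shock and cytosolic chaperone genes, 10 were at least 2-fold higher and 0 lower (median 0.23). dnajb1b, an Hsp40 co-chaperone, had 8.69 at 12 Gy and 5.86 in the control, and the small chaperone hspb1 had 9.31 at 12 Gy and 6.57 in the control. The constitutive chaperone genes hspa8 (0.11) and hsp90ab1 (-0.04) were close to equal in both arrays. In the endoplasmic reticulum list 2 of 45 genes (4.44%) were at least 2-fold higher, a smaller share than the 6.41% of all named genes. They were ppp1r15a and the chaperone gene hspa5 (9.29 at 12 Gy, 8.17 in the control). On the other side, 1 gene (2.22%, against 4.53%) was at least 2-fold lower. That gene was ddit4, an inhibitor of the growth kinase mTOR, with 3.67 at 12 Gy and 5.04 in the control. The 15 Gy arrays gave ddit4 at 7.14, 6.07 and 6.10, on the other side of the control.

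Of 76 genes of epidermis and simple epithelia, 27 were at least 2-fold higher and 2 lower (median 0.46). By sign alone, 58 were higher and 18 lower. The simple-epithelium keratin gene krt18a.1 had 10.63 at 12 Gy and 7.42 in the control, the annexin gene anxa2a 9.79 at 12 Gy and 6.12 in the control, and the tight junction gene cldnb 9.41 at 12 Gy and 7.04 in the control. The 2 lower genes (2.63%, against 4.53% of all named genes) were krt1-19e, a keratin gene of the larval skin, and pvalb8, a parvalbumin. krt5, a keratin gene of basal epidermis, had 9.97 at 12 Gy and 10.94 in the control, while the 15 Gy arrays stood at 10.89 to 11.04, close to the control. krt4, a keratin gene of the outer layer, had 10.57 at 12 Gy and 11.14 in the control, and all 15 Gy arrays exceeded the control (11.90 to 12.47). Of the 76 genes, 49 (64.5%) were below all arrays at 15 Gy, against 31.3% of named genes.

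In the list of matrix and fibroblast genes, 12 of 47 were at least 2-fold higher and 2 lower (median 0.30). fn1b, a fibronectin gene, had 9.86 at 12 Gy and 6.67 in the control, and serpinh1b, the collagen chaperone, had 7.29 at 12 Gy and 5.50 in the control. ctsk, a collagen-degrading cathepsin, had 7.61 at 12 Gy and 5.76 in the control. The main fibrillar collagen genes differed less, with 0.74 for col1a1a and 0.21 for col1a2 on their brightest probe sets. The 2 lower genes made up 4.26% of the list, against 4.53% of all named genes. They were the cartilage collagen gene col9a1b, with 8.48 at 12 Gy and 9.88 in the control, and kera, the corneal proteoglycan keratocan, with a difference of -1.32.

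Photoreceptor genes were the lowest list, with 32 of 52 at least 2-fold lower, 0 higher and a median of -1.52. The 3 opsins stood at its end, followed by the phototransduction genes rgs9a (4.59 at 12 Gy, 7.82 in the control), which speeds recovery, gnat2 (7.07 at 12 Gy, 10.20 in the control), gnb3b (8.36 at 12 Gy, 11.42 in the control) and gngt2b (10.62 at 12 Gy, 13.46 in the control), the α, β and γ subunits of cone transducin. elovl4b, a fatty acid elongase of photoreceptors, had 7.12 at 12 Gy and 10.24 in the control, and pdcb, phosducin, had 7.80 at 12 Gy and 10.46 in the control. Not all differed to this extent. The cone phosphodiesterase inhibitor pde6ha had 12.07 at 12 Gy and 13.11 in the control, and gnb1b, a β subunit that rods and other neurons use, differed by -0.31. Against the spread at 15 Gy these differences were less distinct. Of the 32 genes, 12 differed from the control by more than the range among the 15 Gy arrays. That held for 477 of all 736 probe sets that were at least 2-fold lower. The 12 Gy values of 45 of the 52 genes lay inside the 15 Gy range, against 4190 of all 8793 named genes. The median differences from the shared control were -1.52 at 12 Gy and -2.75, -1.06 and -1.58 in the 15 Gy arrays.

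Of 79 genes of neurons and synapses, 38 were at least 2-fold lower and 1 was higher by that much (median -0.84). neurod6b, a transcription factor gene of differentiating neurons, had 6.25 at 12 Gy and 8.57 in the control, and neurod1 had 8.17 at 12 Gy and 10.24 in the control. camk2d2, a calcium-dependent kinase gene, had differences of -2.06 and -1.35 on its 2 probe sets. Genes of inhibitory neurons chosen after their values were seen were gad1b, which makes GABA (8.75 at 12 Gy, 10.64 in the control), and slc32a1, which loads it into vesicles (7.62 at 12 Gy, 9.49 in the control). The vesicle fusion gene snap25a differed by -0.87, the vesicle calcium sensor syt1a by -1.52, and the early neuronal gene elavl3, chosen after its values were seen, by -0.56 with all 4 probe sets between -0.56 and -0.48. The gene above 2-fold was chrna1, a subunit of the muscle acetylcholine receptor, with a difference of 1.17. Of the 39 genes past 2-fold in either direction, 17 differed by more than the range among the 15 Gy arrays. That held for 477 of all 736 probe sets at least 2-fold lower and 815 of all 841 at least 2-fold higher. At 12 Gy, 54 of the 79 genes lay inside the 15 Gy range, against 4190 of all 8793 named genes.

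Glial genes went both ways, with 3 of 30 at least 2-fold higher and 2 lower (median -0.09). Both shares were only somewhat above those of all named genes, 6.41% higher and 4.53% lower, in a list of 30 genes. The glutamate transporter gene slc1a2b had 11.15 at 12 Gy and 12.82 in the control, and rlbp1a, a retinoid carrier of Müller glia, had 7.06 at 12 Gy and 8.68 in the control. apoeb, the lipid carrier that microglia express strongly, had 11.69 at 12 Gy and 9.28 in the control. The intermediate filament gene vim had 10.16 at 12 Gy and 8.63 in the control, and s100b 6.62 at 12 Gy and 5.33 in the control, both above all 15 Gy arrays. gfap, the filament gene of radial glia, chosen after its values were seen, was just below 2-fold at 0.98. The lens list had 0 of 15 genes past 2-fold either way, with a median of -0.08, or 0.014 without the dimmest 30%. Of 14 pituitary genes 1 (7.14%) was at least 2-fold higher, prl, prolactin (5.49 at 12 Gy, 4.05 in the control). In the same list 2 (14.3%) were lower, isl1a (-1.99) and cpe (-1.32), of which isl1a is also a neuronal transcription factor.

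Of 65 fast skeletal muscle genes, 20 were at least 2-fold higher and 1 lower (median 0.73). desma, the intermediate filament of muscle, had 10.84 at 12 Gy and 7.82 in the control, xirp1, an actin-binding repair protein gene, 7.46 at 12 Gy and 5.01 in the control, and pvalb4, a parvalbumin, 11.09 at 12 Gy and 8.70 in the control. Among the brightest of the list, actc1b differed by 0.42, with -0.08 to 0.73 over 4 probe sets, and pvalb2 by 0.40. The actc1b probe sets at -0.08 read only 3.43 to 3.57 at 12 Gy and in the control. The gene on the lower side (1.54%, against 4.53% of all named genes) was ckmt2a, a mitochondrial creatine kinase also in the photoreceptor list. Of 25 genes of slow and heart muscle, 7 were at least 2-fold higher and 0 lower (median 0.19, and 0.512 without the dimmest 30%). These included the tropomyosin gene tpm4a (2.15), the light chain genes myl10 (1.77) and myl13 (1.73), and the slow myosin gene smyhc1 (1.63).

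Among 64 genes of liver-secreted proteins, 14 were at least 2-fold higher and 1 lower (median 0.24, and 0.445 without the dimmest 30%). The complement gene c4b had 8.24 at 12 Gy and 4.89 in the control, the fibrinogen genes fga 8.70 at 12 Gy and 6.15 in the control and fgb 7.81 at 12 Gy and 5.48 in the control, and igfbp1a, a binder of insulin-like growth factors, 10.77 at 12 Gy and 8.04 in the control. The lower gene (1.56%, against 4.53% of all named genes) was rbp4, the retinol carrier, with 9.50 at 12 Gy and 10.68 in the control. The apolipoprotein genes apoa2 (-0.14) and apoa1a (0.77) were below 2-fold. For apoa2 all 15 Gy arrays (12.10 to 12.49) lay more than 2-fold above the control value of 10.84, and the 12 Gy array read 10.70.

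Digestive enzyme genes were lower, with 12 of 39 genes of exocrine pancreas and gut at least 2-fold lower and 0 higher. Their median was -0.37, with -0.726 without the dimmest 30% and -0.23 with a constant of 16 added to the intensities. prss1, trypsin, had 6.76 at 12 Gy and 9.03 in the control, ela3l, an elastase, 5.16 at 12 Gy and 7.31 in the control, and ctrb.1, a chymotrypsinogen, 5.34 at 12 Gy and 7.13 in the control. The 15 Gy arrays spanned the control for these genes, with 7.38, 8.50 and 9.44 for prss1. Only 3 of the 12 differences exceeded the range among the 15 Gy arrays. That held for 477 of all 736 probe sets that were at least 2-fold lower.

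Antioxidant genes had 6 of 56 members (10.7%, against 6.41% of all named genes) at least 2-fold higher and 0 lower (median 0.22). At the top were txnb, a thioredoxin (9.36 at 12 Gy, 6.45 in the control), and gpx1b, a glutathione peroxidase (8.87 at 12 Gy, 6.22 in the control). txnipa, the thioredoxin inhibitor, had 10.52 at 12 Gy and 8.52 in the control. The autophagy receptor gene sqstm1 followed at 1.56. In the list of fasting and glucocorticoid genes 16 of 58 were at least 2-fold higher and 2 lower (median 0.21). fbxo32, a ubiquitin ligase of muscle wasting, had 7.00 at 12 Gy and 4.25 in the control, and the kinase gene sgk1 had 10.62 at 12 Gy and 8.31 in the control. The lower genes (3.45%, against 4.53% of all named genes) were foxo3a (-1.45), a transcription factor of fasting, and ddit4. In hypoxia and glycolysis 7 of 37 were at least 2-fold higher and 2 (5.41%, against 4.53% of all named genes) lower. Among the higher was vegfaa, the vessel growth factor, at 1.67. The lower genes there were pgam1b, a glycolytic mutase, at -1.32 and ldhbb, a lactate dehydrogenase, at -1.09. Of 41 xenobiotic genes, 4 (9.76%, against 6.41% of all named genes) were at least 2-fold higher. They were led by cyp24a1 (1.62), which degrades vitamin D and whose other probe set differed by 0.10. The others were cyp1a (1.54), the target of the aryl hydrocarbon receptor, sult1st1 (1.47) and cyp3c1 (1.1). In sterol synthesis, 1 of 19 (5.26%, against 4.53% of all named genes) was at least 2-fold lower, hmgcs1, with 6.93 at 12 Gy and 8.25 in the control.

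The lists of blood vessels, ionocytes and kidney, red blood cells and pigment cells had medians from -0.18 to -0.03. In them, 3 of 28 (10.7%), 3 of 28 (10.7%), 0 of 28 and 0 of 23 genes were at least 2-fold higher, against 6.41% of all named genes. They were plvapb (1.51), tagln (1.35) and cldn5a (1.14) of vessels and slc12a3 (1.39), atp1b1a (1.30) and aqp3a (1.05) of ionocytes and kidney. The dimmer probe set of slc12a3 differed by -0.16, that of atp1b1a by 0.85, and those of cldn5a by 0.25 and 0.02. The cldn5a probe set at 0.02 read only 2.59 at 12 Gy and 2.57 in the control. In each list 1 gene was at least 2-fold lower: apln (-1.03), atp6v0cb (-1.57), cahz (-1.23) and tfap2a (-1.19). These were 3.57%, 3.57%, 3.57% and 4.35% of the lists, against 4.53% of all named genes.

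**Figure D4:**
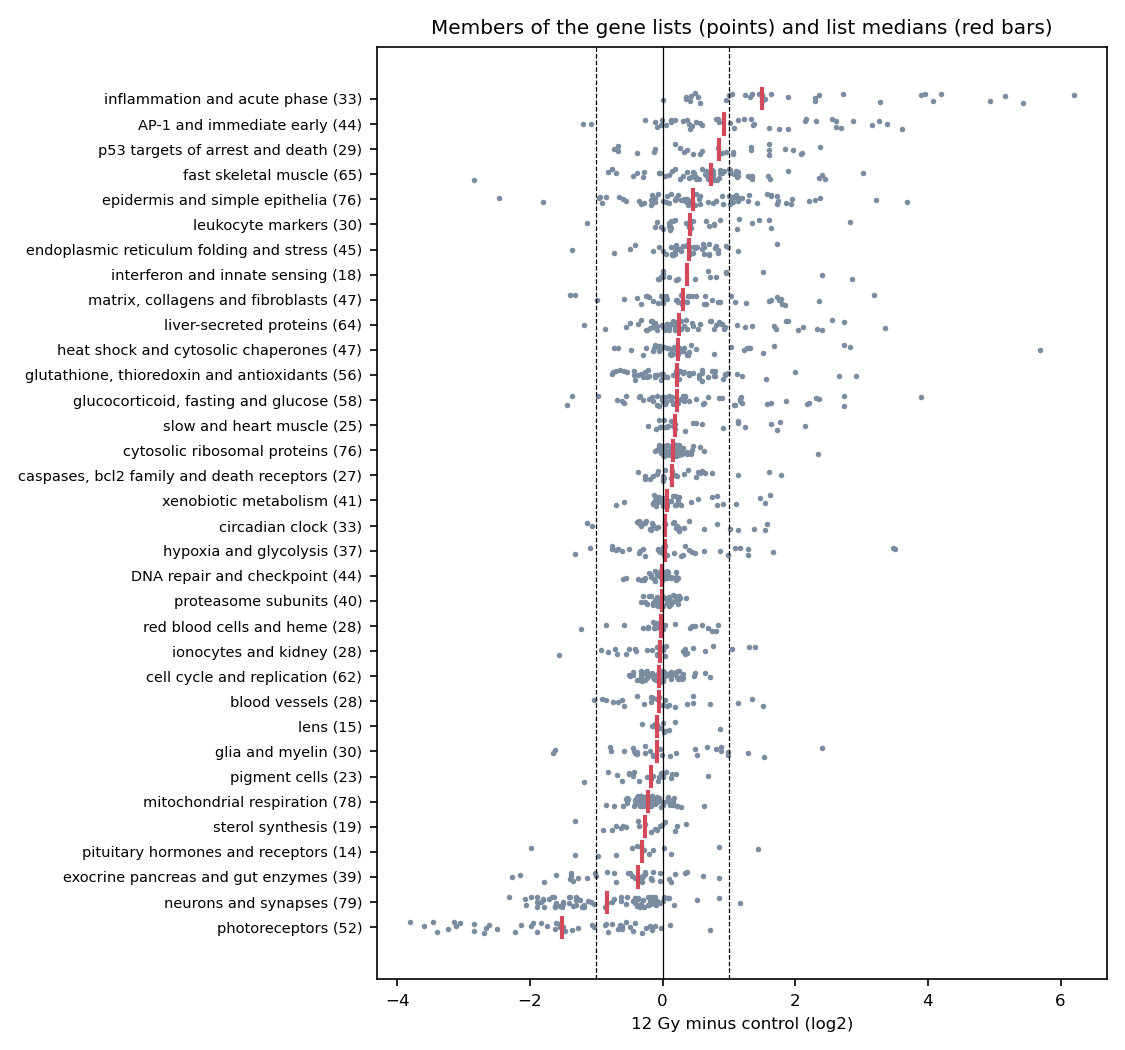
Difference between the 12 Gy and control arrays (log2, horizontal axis) for the measured members of 34 gene lists, with the number measured in brackets and each list's median as a red bar. Dashed lines mark 2-fold; medians run from -1.52 for photoreceptors to 1.5 for inflammation and acute phase.

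Genes of mitochondrial respiration and of the proteasome lay mostly below their 15 Gy values and close to the control. Of 78 genes of mitochondrial respiration, 0 passed 2-fold against the control (median -0.22), yet 64 (82.1%) were below all 15 Gy arrays, against 31.3% of all named genes. atp5mc1, a subunit of the ATP synthase, had 10.30 at 12 Gy and 11.16 in the control, and the 15 Gy arrays gave 10.99 to 11.29. Of 40 proteasome genes, 0 passed 2-fold (median -0.01) and 34 (85.0%) were below all 15 Gy arrays. psmb1 had 9.43 at 12 Gy and 9.64 in the control, and 9.87 to 10.47 at 15 Gy. The median differences from the shared control were -0.22 at 12 Gy and 0.43, -0.07 and 0.35 at 15 Gy for respiration, and -0.01 at 12 Gy and 0.64, 0.19 and 0.55 at 15 Gy for the proteasome. The median of 76 genes named for cytosolic ribosomal proteins, which include some kinase genes of the rps6k family, was 0.15, and it was 0.041 after quantile normalization and -0.032 after cyclic loess normalization. The gene past 2-fold there was rps27l (10.09 at 12 Gy, 7.75 in the control), which is known in mammals as a target of p53.

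The 12 Gy array stood at least 2-fold above all other arrays for 37 probe sets (0.239% of all) of 22 named genes, and at least 2-fold below all others for 10 probe sets (0.0645%) of 5 named genes. The widest gap was that of 1 probe set of copb2, a coat protein gene of vesicles between Golgi and endoplasmic reticulum. It read 8.84 at 12 Gy, 2.40 in the control and 2.29 to 2.36 at 15 Gy, while the other 2 probe sets of copb2 differed from the control by 0.19 and 0.15. calr, calreticulin, was split in the same manner, with 1.72 on 1 probe set and -0.15 on the brighter. rnf146, a ubiquitin ligase gene, had 1.21 on each of 2 probe sets and -0.54 on the brightest. For cry2, by contrast, both probe sets stood apart.

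plekhh1 had 7.72 at 12 Gy and 5.22 in the control, with 6.06 to 6.45 at 15 Gy. pik3ip1, an inhibitor of PI3 kinase, had 9.30 at 12 Gy and 7.09 in the control, with 7.44 to 7.63 at 15 Gy. The remaining genes of the rule were txlnba (2.26), zp3a.2 (1.78) and tnpo2a (1.32), each with 1 probe set. Genes chosen after their values were seen were the neuronal activity genes egr4 (7.81 at 12 Gy, 6.05 in the control) and npas4a (8.06 at 12 Gy, 7.04 in the control, 5.75 to 6.51 at 15 Gy), and tat, a tyrosine-degrading enzyme of liver that fasting induces (6.10 at 12 Gy, 4.92 in the control, 3.78 to 4.65 at 15 Gy). For npas4a and tat the 15 Gy arrays lay below the control and the 12 Gy array above it. si:dkey-7c18.24, also chosen after its values were seen, had 4 probe sets with differences of 4.47, 2.59, 2.94 and 0.27, of which the brightest read 11.37 at 12 Gy, 6.89 in the control and 8.75 to 8.84 at 15 Gy.

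On the lower side, krt1-19e stood apart on both probe sets, with 10.61 at 12 Gy and 12.40 in the control on the brighter and 6.66 at 12 Gy and 8.53 in the control on the other. The 15 Gy arrays gave 11.93 to 11.96 and 8.82 to 10.06. pvalb5, a parvalbumin, had 6.06 at 12 Gy and 7.86 in the control, and prxl2b, a peroxiredoxin-like gene, had 5.37 at 12 Gy and 6.38 in the control. ddit4 and col9a1b, given above, complete the 5 genes. The probe set with the widest gap below was unnamed and read 4.39 at 12 Gy, 9.03 in the control and 9.37 to 9.87 at 15 Gy.

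Clock genes were the list that lay most often above the 15 Gy arrays in these data. In the circadian oscillator of vertebrates, Clock and Bmal proteins activate period and cryptochrome genes, whose products repress them. Of 33 measured clock genes, 5 (15.2%) were at least 2-fold higher and 2 (6.06%) lower, against 6.41% and 4.53% of named genes. By sign alone, 17 of the 33 were higher and 16 lower. The median difference of the 33 from the control was 0.03 (0.104 without the dimmest 30%). At 12 Gy, 19 of the 33 (57.6%) were above all 15 Gy arrays, against 21.1% of named genes. cry2, a cryptochrome, had 8.58 at 12 Gy and 7.00 in the control, with 6.83 to 7.00 at 15 Gy. Its dimmer probe set had 6.32 at 12 Gy and 4.94 in the control, with 4.77 to 5.06 at 15 Gy. The repressor genes bhlhe41 (7.57 at 12 Gy, 6.02 in the control), bhlhe40 (10.64 at 12 Gy, 9.26 in the control) and ciarta (9.27 at 12 Gy, 8.14 in the control) also exceeded every other array. cry-dash, which repairs light-damaged DNA and is counted here for its relation to cryptochromes, had 7.09 at 12 Gy and 6.08 in the control, with 6.11 to 6.14 at 15 Gy, and its other probe set differed by 0.31. The 2 lower genes were bmal1a (6.12 at 12 Gy, 7.26 in the control, 6.47 to 6.59 at 15 Gy) and rorab (8.29 at 12 Gy, 9.35 in the control, 7.33 to 8.61 at 15 Gy), which encodes an activator of bmal genes. Clock genes chosen after their values were seen were tefa (0.82 and 1.07 on its 2 probe sets), per2 (9.81 at 12 Gy, 9.57 in the control, 8.84 to 9.13 at 15 Gy), clocka (0.03) and clockb (-0.36). Further cryptochrome and period genes, also chosen after their values were seen, did not all go with cry2 and per2. Below the control were cry1a (-0.39), cry3b (-0.36), cry4 (-0.30), cry3a (-0.07) and per3 (-0.38, at a mean level of 3.50). Above it was cry5 (0.20 on its brightest probe set). The time of day at which each pool was collected is not given in the sources used here, and its part in these values was not tested.

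**Figure D5:**
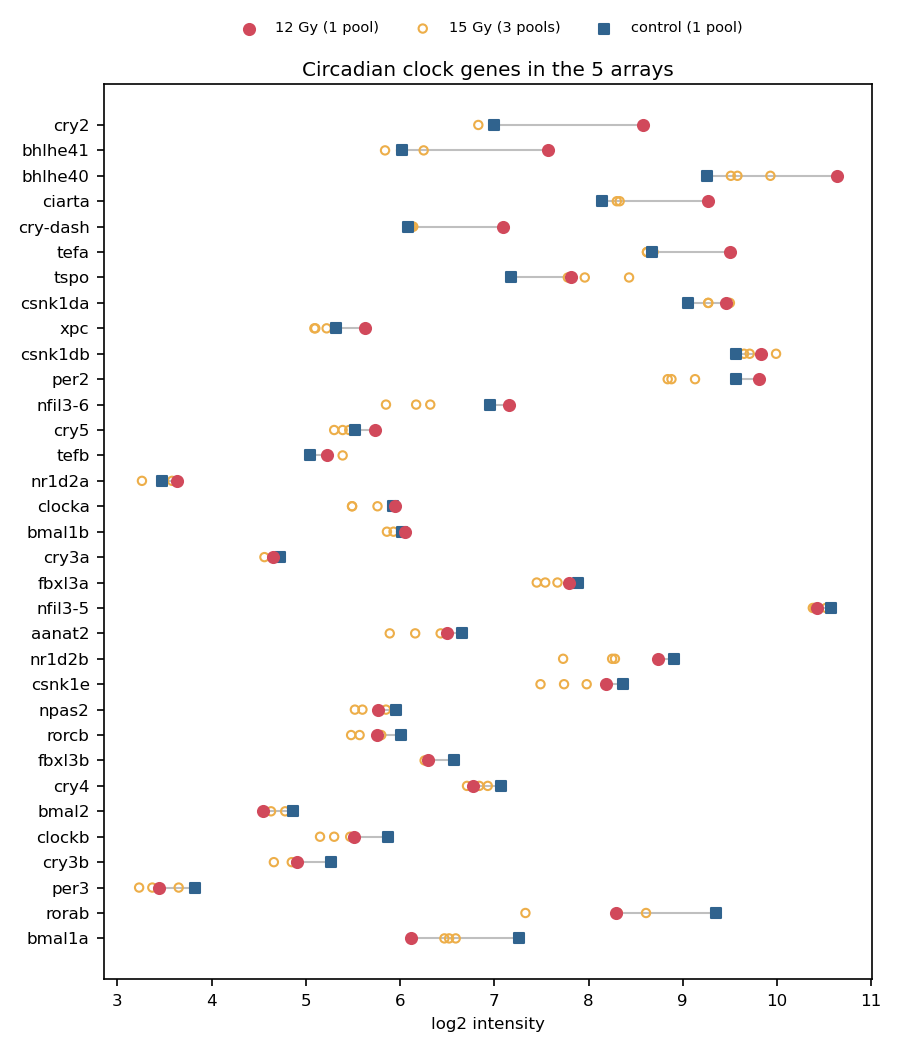
Log2 intensity (horizontal axis) of the 33 measured circadian clock genes in the 12 Gy pool (red circle), the 3 pools at 15 Gy (open circles) and the control pool (blue square), ordered by the difference between 12 Gy and control. For cry2, bhlhe41, bhlhe40, ciarta and cry-dash the 12 Gy pool lies above all 4 other arrays, and for bmal1a below them.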

How the data were processed

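The deposited values are linear intensities between 3.99 and 24171. RMA, named by the submitters' processing notes, subtracts background, equalizes quantiles and summarizes probes in log2. That the values are RMA values turned back to linear is read from the values. Its version is not given in the sources used here. Values were turned to log2 with no constant added. All probe sets but 115 controls were kept, 15502 in all. Names came from the platform annotation and were updated by Entrez identifier with the RefSeq table of GRCz12tu: 10795 probe sets had 1 symbol, 135 several and 4572 none. A gene was represented by its brightest probe set (mean of the 5 arrays). In 3879 probe sets, 2 or more arrays had tied values, which lowers the estimated spread.

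Differences between 2 arrays were counted at 2-fold with no test. limma 3.58.1 in R 4.3.3 fitted a mean per group to all 5 arrays, two-sided and adjusted by Benjamini-Hochberg. Its 2 residual degrees of freedom came from the 15 Gy arrays. The code was run on simulated data that gave every array the 15 Gy spread. That run cannot check whether the lone arrays vary as the 15 Gy arrays do. The table work and figures used pandas 2.3.3 and matplotlib 3.10.9 in Python 3.11.15. The number of arrays limits precision, and nothing in the labels gives a batch or a clutch for an array. The labels call the pools biological replicates; whether pools of a dose were irradiated apart is not stated.

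The comparison, the 34 gene lists (1374 genes measured, 54 in more than 1 list) and the rules were chosen with earlier results of these data known. Named genes had 1 symbol and no clone name. They were the 15 furthest each way with all probe sets on the same side, per list up to 5 members with the largest differences and 3 further with the highest levels, mdm2, ccng1, baxa and gadd45aa, up to 10 each way that stood apart from all other arrays, and 6 genes each whose probe sets agreed or disagreed most. Members that complete a small count are named as well. Alternatives were quantile normalization again, cyclic loess, median centring, a constant of 16, no dimmest 30%, other folds, the median over probe sets, a trend in eBayes, and leaving out each 15 Gy array. Promoter sequences were not used here.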

Additional observations from a re-analysis of the deposited data

How the results depend on the processing

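At 1.5-fold, 1821 probe sets were higher and 1762 lower at 12 Gy than in the control, and at 4-fold 161 were higher and 62 lower. Of the 736 lower at 2-fold, 477 also differed from the control by more than the range at 15 Gy. The normalizations, the constant and the filter kept both 2-fold counts within 1.5 times, and over named genes the higher share of those past 2-fold ran from 55.0% to 59.8%. limma passed 4 probe sets after quantile normalization (copb2, si:dkey-7c18.24, slc16a9a and fosab), 2 after cyclic loess (copb2 and si:dkey-7c18.24), 1 with an intensity trend (copb2), and 0 without the dimmest 30%. Leaving out each 15 Gy array in turn gave 0 to 0 calls with 1 residual degree of freedom, which says nothing about stability, and 1180 to 3669 probe sets at an unadjusted p under 0.05. With 16 added, 19 probe sets stood apart above and 5 below, an alternative added after the data were seen. The ribosomal protein median was -0.032 after cyclic loess, the only reversal among list medians of at least 0.1 in size over these settings; the cause was not tested. Of the 34 list medians, 25 moved by less than the spread between 15 Gy arrays without the dimmest 30%, and 30 to 33 under the other settings, with 31 after cyclic loess. Without the dimmest 30%, the medians of slow and heart muscle (0.512), liver-secreted proteins (0.445), leukocyte markers (0.661), interferon genes (0.833) and digestive enzymes (-0.726) were further from 0. No named gene that was at least 2-fold apart changed sign under the normalizations, the constant or the filter. No paired analysis was possible because the 12 Gy and control groups share only replicate number 1. A lone array on each side, dim probe sets near background and unstated batches limit every value here.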
